A study of Mus musculus with 10 samples.

Results

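The 10 genes described here make prostaglandins, break them down or receive their signal in the mouse uterus. They were taken by gene symbol from a table of 29268 genes, by a rule that uses no measured value. 4 of them belong to synthesis (Ptgs1, Ptgs2, Ptges and Ptgis), 1 to breakdown (Hpgd) and 5 to reception (Ptger1, Ptger2, Ptger3, Ptger4 and Ptgfr). RNA sequencing had been done on uterine samples of 5 HSD17B1TG and 5 WT female mice, all 4 months old, with 1 library per mouse. Which part of the uterus was taken for RNA is not given in the sources used here. The HSD17B1TG mice were FVB/N mice that over-express the cDNA of human HSD17B1, an enzyme that turns estrone into the stronger estrogen estradiol. A CMV-enhanced chicken beta actin promoter drives the transgene in all tissues, and carriers are heterozygous, with a transgenic sire and a WT dam. By the study's methods HSD17B1TG females do not cycle, while the WT mice whose uteri were taken for histology were at random phases of the cycle, and the phase of the sequenced WT mice is not given in the sources used here. The paper reports no significant difference in serum estradiol between the genotypes, and lower serum progesterone in the transgenic females at this age. It proposes that estrogen action is raised locally in tissues that include the uterus. The comparison asked how an HSD17B1TG uterus, before it develops adenomyosis-like lesions, differs from a WT uterus in its prostaglandin genes. The separate parts of estrogen and progesterone in the values below were not tested.

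Prostaglandins are short-lived lipid signals. The cyclooxygenases, encoded by Ptgs1 and Ptgs2, turn arachidonic acid into the intermediate PGH2, from which Ptges makes PGE2 and Ptgis makes prostacyclin, while Hpgd begins the inactivation of PGE2 and PGF2alpha. PGE2 acts through the receptors EP1 to EP4, encoded by Ptger1 to Ptger4, and PGF2alpha through FP, encoded by Ptgfr; in the uterus these signals are known for their parts in myometrial contraction, implantation, labour and menstrual pain.

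No member passed the test between HSD17B1TG and WT uteri. A gene was called when its adjusted p was under 0.05 in edgeR's quasi-likelihood test, its fold change exceeded 2 and its mean FPKM (fragments scaled for transcript length and sequencing depth) exceeded 1 in either group. By this rule 0 of 10 members were called up, where 2.16% of the 16993 genes tested were, and 0 of 10 were called down, where 2.08% were. Without the limits on fold change and FPKM the count was also 0, against 6.16% of all genes tested. An unadjusted p under 0.05 was found for 3 members (Ptger2, Ptgs1 and Hpgd), against 26.1% of all genes. FPKM did not separate the groups for any member, whereas the groups did not overlap for 6.69% of genes. By the other tools, DESeq2 gave 1 member with an adjusted p under 0.05 (Ptger2) and 3 with an unadjusted p under 0.05. Limma-voom gave 0 and 1 in the same order, and limma on log2(FPKM + 1) gave 0 and 2. The shares of all genes that passed under these other tools are not given here, so these counts cannot be set against a background. The members split evenly, with 5 fitted higher and 5 fitted lower in HSD17B1TG, and their median log2 fold change was -0.19, beside 0.00 over all genes tested. The 95% intervals were wide for some members, reaching from -3.82 to 0.88 on the log2 scale for Ptgs2, so that the lack of a call does not show equal levels.

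**Figure D1:**
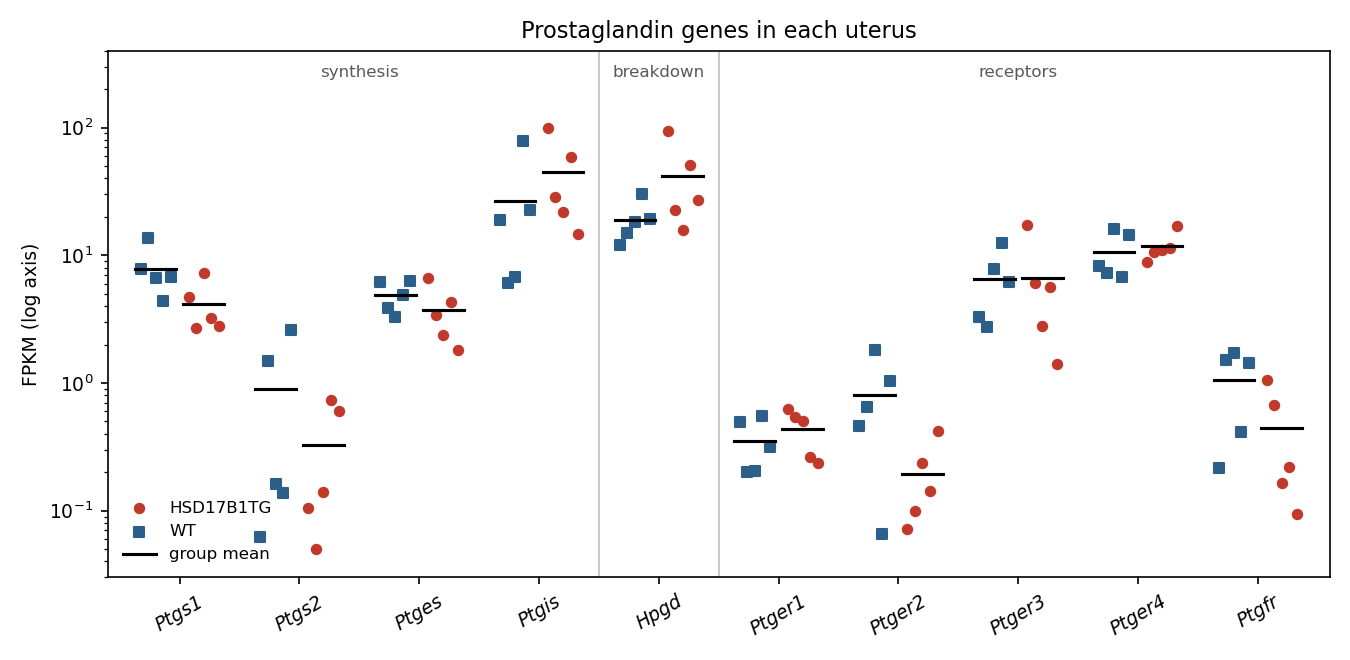
FPKM of the 10 prostaglandin genes (log axis) in the 5 WT uteri (blue squares) and the 5 HSD17B1TG uteri (red circles), each point 1 mouse and each black line a group mean. The groups overlap for every gene, and Ptgis and Hpgd lie highest while Ptgs2, Ptger1 and Ptger2 lie lowest.

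The libraries held 14817228 to 23271988 counts each, so that 3 counts corresponded to 0.202 CPM (counts scaled to the library total) in the shallowest. Mitochondrially encoded genes took 1.94% to 7.57% of counts in HSD17B1TG and 2.58% to 3.37% in WT. The endogenous mouse Hsd17b1 lay at 0.754 to 1.32 FPKM in HSD17B1TG and 0.456 to 1.42 FPKM in WT (adjusted p = 0.879 in edgeR), which checks nothing about the human transgene. Of 11 uterine identity genes, all of them tested, 1 was called up (Ltf, log2 fold change 4.07) and 4 down (among them Msx1 at -2.88, Hoxa11 at -2.36 and Hoxa10 at -2.14), while the estrogen receptor gene Esr1 lay at 33.9 ± 4.83 (SD, n = 5) FPKM in HSD17B1TG and 34.9 ± 6.50 (SD, n = 5) in WT. The 9 listed genes of oviduct cells summed to only 5.80 to 11.1 FPKM. The cell makeup differed between mice. The 12 markers of smooth muscle summed to between 1242 and 9768 FPKM in HSD17B1TG and between 576 and 7244 FPKM in WT, 11 of the 12 being fitted higher in HSD17B1TG and none called. The 14 stromal markers summed to 752 to 2913 FPKM in HSD17B1TG and 2390 to 3217 FPKM in WT, with 5 called down, and the 15 epithelial markers to 963 to 4120 FPKM against 555 to 2028 FPKM, with 14 fitted higher and none called. No marker of these 3 lists was at 0 in all mice. In RNA from whole tissue, fewer cells of a type and less RNA per cell cannot be told apart.

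The stretches before the starts of 4 members are shown, because they make the pairs that the values below set side by side: the cyclooxygenases Ptgs1 and Ptgs2, and Ptges and Hpgd, which make and inactivate PGE2. RefSeq windows of build GRCm38.p6, from 250 bases before to 50 after a start, were found for 8 of the 10 members, all but Ptgis and Ptger1. Each line gives 100 bases that end just before the RefSeq start, 5′ to 3′ on the gene's strand, and capitals mark the motifs found.
Ptgs1, chr2:36230326-36230425, plus strand: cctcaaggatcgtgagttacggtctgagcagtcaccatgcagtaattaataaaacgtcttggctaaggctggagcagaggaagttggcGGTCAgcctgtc
Ptgs2, chr1:150099931-150100030, plus strand: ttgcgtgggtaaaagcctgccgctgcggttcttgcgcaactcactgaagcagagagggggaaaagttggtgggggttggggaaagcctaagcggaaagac
Ptges, chr2:30903298-30903397, minus strand: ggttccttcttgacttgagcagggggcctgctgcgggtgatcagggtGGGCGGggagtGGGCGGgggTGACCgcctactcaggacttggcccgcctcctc
Hpgd, chr8:56294452-56294551, plus strand: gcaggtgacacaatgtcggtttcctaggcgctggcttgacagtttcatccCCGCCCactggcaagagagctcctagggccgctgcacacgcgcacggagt
Short stretches of 30 bases after the RefSeq starts of Ptgs2 and Hpgd held further matches.
Ptgs2, chr1:150100035-150100064, plus strand: tcaccactACGTCACGTGgagtccgcttta
Hpgd, chr8:56294552-56294581, plus strand: gggcTATAAAagctgctgcggcgtccagac

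The whole window of each gene was searched on both strands for a TATA box (TATAAA), the core of a cAMP response element (TGACGT) and an E-box (CACGTG). It was also searched for a GC box (GGGCGG), for the core repeat of an estrogen response element (GGTCA) and for the letters CCAAT, known as the CCAAT box. Ptgs2 held a cAMP response element core, on the minus strand at bases 13 to 18 after the start, and an E-box at bases 17 to 22 that overlaps it, and no other member held either. These motifs stood in 7.55% and 7.17% of the 32544 promoters of the table. Ptgs1 held only the estrogen element core, at 12 to 8 bases before its start, which 3 of the 8 members (Ptgs1, Ptges and Ptgfr) and 40.5% of all promoters held. Ptges carried 2 GC boxes, at 53 to 48 and 42 to 37 bases before its start, and a GC box was found in 6 of 8 members and 35.9% of promoters. Hpgd held the TATA box, found in 1 of 8 members and 13.6% of promoters, and Ptger2 and Ptger4 held a CCAAT box, found in 37.4%. No member window held a full estrogen response element (GGTCA and its inverted copy with 3 bases between them), an NF-kB element or a CArG box, which stood in 0.0707%, 8.49% and 1.64% of promoters. A match is a description of letters and not of a bound site. The deposited table starts Ptges and Ptgfr further upstream than RefSeq, and Hpgd, Ptger2 and Ptger3 further downstream, so that the TATA box printed after the RefSeq start of Hpgd lies before the table's start of that gene.

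Of the cyclooxygenases, Ptgs1, which encodes the constitutive COX-1, was the more abundant in 10 of 10 uteri, and its mean was lower in HSD17B1TG without passing the test. Ptgs1 (ENSMUSG00000047250, chr2:36230426-36252272 of build GRCm38) had FPKM of 4.68, 2.69, 7.27, 3.21 and 2.81 in HSD17B1TG mice 1 to 5. In WT mice 1 to 5 it had 7.77, 13.6, 6.67, 4.43 and 6.73. HSD17B1TG mice 2, 4 and 5 lay below every WT mouse, and WT mice 1 and 2 above every HSD17B1TG mouse. The mean FPKM was 4.13 ± 1.92 (SD, n = 5) in HSD17B1TG and 7.83 ± 3.44 (SD, n = 5) in WT. The log2 fold change was -0.93 (SE 0.35, 95% interval -1.71 to -0.16) with an adjusted p of 0.124 in edgeR. An exact two-sided permutation test on log2(FPKM + 1), whose smallest possible p is 0.00794, gave p = 0.0556. Without HSD17B1TG mouse 3, the mouse with the highest Ptgs1 of its group, the log2 fold change was -1.25 with an edgeR adjusted p of 0.0446, and Ptgs1 was then called down. Without WT mouse 2, the highest of its group, the log2 fold change was -0.66 with an adjusted p of 0.271.

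Ptgs2, the inducible COX-2, was low in most uteri and highest in WT mice 2 and 5. Ptgs2 (ENSMUSG00000032487, chr1:150100031-150108227) had FPKM of 0.105, 0.0502, 0.139, 0.731 and 0.603 in HSD17B1TG mice 1 to 5. In WT mice 1 to 5 it had 0.0622, 1.48, 0.162, 0.137 and 2.62. WT mice 2 and 5, with 129 and 246 counts, stood above all others, while the other 3 WT mice lay in the range of the HSD17B1TG mice. The log2 fold change was -1.47 (SE 1.07, 95% interval -3.82 to 0.88) with an edgeR adjusted p of 0.418, and it was -0.53 without WT mouse 5. The counts behind these values ran from 4 to 246, and Ptgs2 varied 42.2-fold among WT mice. Ptgs1 made up 81.4% to 98.2% of the summed FPKM of both cyclooxygenases in HSD17B1TG and 71.9% to 99.2% in WT, and the lowest of these shares belonged to WT mouse 5. The sum of both ran from 2.74 to 7.41 FPKM in HSD17B1TG and from 4.56 to 15.1 FPKM in WT.

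Ptges, the microsomal PGE synthase that works downstream of the cyclooxygenases, had a smaller estimated difference between the groups in the fit of all 10 mice. Ptges (ENSMUSG00000050737, chr2:30889471-30929863) had FPKM of 6.61, 3.41, 2.39, 4.34 and 1.81 in HSD17B1TG mice 1 to 5, and 6.23, 3.88, 3.30, 4.93 and 6.31 in the WT mice. HSD17B1TG mouse 1 lay above and mice 3 and 5 below every WT mouse, with a log2 fold change of -0.41 (SE 0.34, 95% interval -1.17 to 0.34) and an edgeR adjusted p of 0.480. With 1 mouse left out it ran from -0.72, without HSD17B1TG mouse 1, to -0.24, without HSD17B1TG mouse 5. Within HSD17B1TG, the order of the mice in Ptges was their order in summed stromal markers, and also in summed smooth muscle and endothelial markers, while in WT the order in Ptges was not that in stromal markers. Per 1000 FPKM of these markers, Ptges lay at 2.06 to 2.56 FPKM in HSD17B1TG and 1.12 to 2.47 in WT (medians 2.41 and 1.80). Per 1000 FPKM of smooth muscle markers the medians stood the other way, at 1.02 in HSD17B1TG and 2.99 in WT, as they did for epithelial markers, at 1.15 and 4.73. These ratios were chosen after the values were seen. The part of cell makeup in the Ptges values was not tested.

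Ptgis, the prostacyclin synthase, was on average the most abundant member, and it varied widely from mouse to mouse. Ptgis (ENSMUSG00000017969, chr2:167191805-167240604) had FPKM of 98.6, 28.8, 21.7, 59.1 and 14.7 in HSD17B1TG mice 1 to 5. In the WT mice it had 19.0, 6.03, 6.74, 78.1 and 22.7. The highest WT mouse, mouse 4, thus exceeded all HSD17B1TG mice but mouse 1. The log2 fold change was 0.75 (SE 0.73, 95% interval -0.86 to 2.37) with an edgeR adjusted p of 0.555, and it ran from 0.24 without HSD17B1TG mouse 1 to 1.70 without WT mouse 4. The SD of log2(FPKM + 1) among HSD17B1TG mice was larger for Ptgis than for 98% of genes tested, and among WT mice larger than for 99.0%.

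The spread of Ptgis went with that of the smooth muscle markers in both genotypes. HSD17B1TG mouse 1 and WT mouse 4 were the highest mice of their groups in both, at 9768 and 7244 FPKM of summed markers. Per 1000 FPKM of these markers, Ptgis was 10.1, 8.61, 8.99, 14.3 and 11.9 FPKM in HSD17B1TG mice 1 to 5 and 9.15, 8.08, 11.7, 10.8 and 8.50 in WT mice 1 to 5. The ratio therefore varied 1.77-fold over the 10 mice, where Ptgis itself varied 16.4-fold and the marker sum 17.0-fold. It was computed after the values were seen and carries no test. Of 12662 protein-coding genes with a mean FPKM over 1 in either group, the 5 most like Ptgis over the 10 mice were Tspan13, Acta2, Trpv2, Cnn1 and Sh3bgr, each with a Spearman rho of 0.99. Acta2 and Cnn1, which encode smooth muscle actin and calponin, are both on the marker list. Like the comparison with markers, this listing for Ptgis was added after its values were seen. All these points share a library, so that depth and tissue makeup enter both sides.

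**Figure D2:**
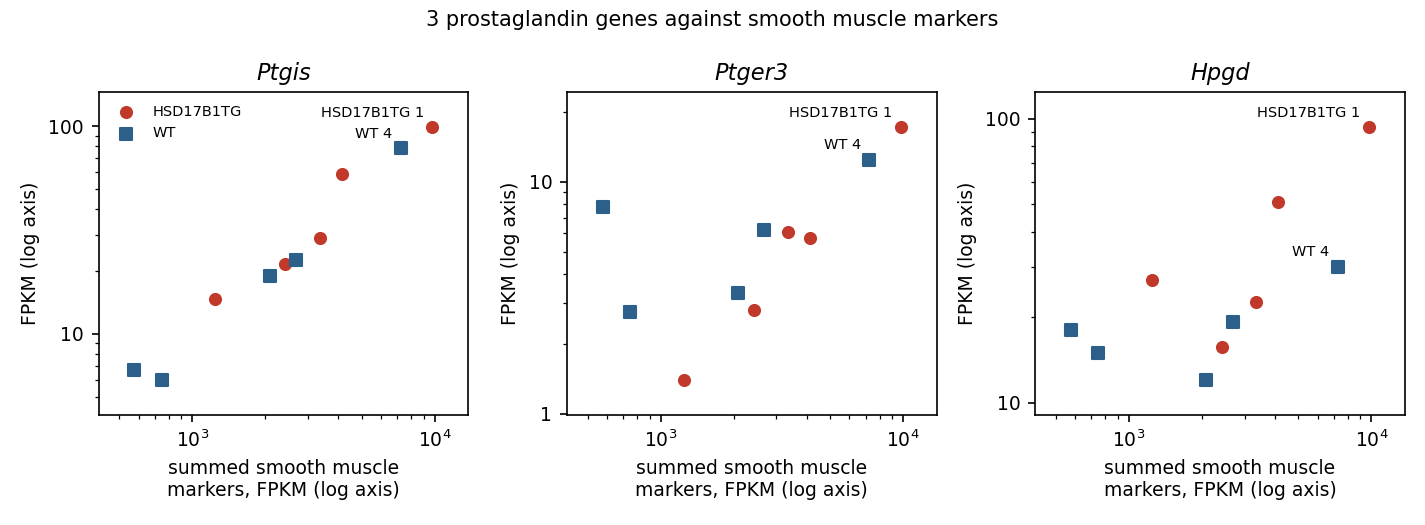
FPKM of Ptgis, Ptger3 and Hpgd (y, log axis) against the summed FPKM of 12 smooth muscle markers (x, log axis), 1 point per uterus, HSD17B1TG as red circles and WT as blue squares. Ptgis follows the marker sum in both genotypes, at 8.08 to 14.3 FPKM per 1000 FPKM of markers, while Ptger3 and Hpgd do so less closely.

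Hpgd, which encodes 15-hydroxyprostaglandin dehydrogenase, was fitted higher in HSD17B1TG, without passing the test. Hpgd (ENSMUSG00000031613, chr8:56294585-56321043) had FPKM of 93.3, 22.7, 15.7, 51.0 and 27.0 in HSD17B1TG mice 1 to 5. In the WT mice it had 12.1, 15, 18.1, 30.2 and 19.3. HSD17B1TG mice 1 and 4 lay above every WT mouse, WT mice 1 and 2 below every HSD17B1TG mouse, and the rest overlapped. The mean FPKM was 41.9 ± 31.6 (SD, n = 5) in HSD17B1TG and 19.0 ± 6.88 (SD, n = 5) in WT. The log2 fold change was 1.14 (SE 0.46, 95% interval 0.13 to 2.15) with an edgeR adjusted p of 0.145, and the exact permutation test gave p = 0.111. Without HSD17B1TG mouse 1, which also had the most smooth muscle marker RNA, the log2 fold change was 0.62. By rank over the 10 mice the genes most like Hpgd were Rit1, Pcmtd1, Hspb2, Ppil6 and Rab4a, with a Spearman rho of 0.93 to 0.98.

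Hpgd mRNA exceeded Ptges mRNA in all 10 uteri, and by more in each HSD17B1TG uterus than in any WT uterus. Hpgd exceeded Ptges 14.1-, 6.67-, 6.56-, 11.8- and 14.9-fold in FPKM in HSD17B1TG mice 1 to 5. In WT mice 1 to 5 it exceeded Ptges 1.94-, 3.87-, 5.50-, 6.13- and 3.06-fold. The ratio averaged 10.8 ± 3.99 (SD, n = 5) in HSD17B1TG and 4.10 ± 1.72 (SD, n = 5) in WT, and the groups did not overlap, the nearest mice standing at 6.56 and 6.13. It is a ratio of 2 members and was given no test. Of single genes 6.69% had groups that did not overlap, but no such share is given for ratios of genes, so the separation has no like background. Per 1000 FPKM of stromal markers, Hpgd alone did not overlap, at 13.5 to 35.9 FPKM in HSD17B1TG and 4.80 to 11.05 in WT. The stromal sum itself ran lower in HSD17B1TG, at 752 to 2913 FPKM against 2390 to 3217 FPKM, which raises any such ratio. On this scale 4 HSD17B1TG mice lay above every WT mouse for Ptger4 and for Ptger1 too. Per 1000 FPKM of smooth muscle markers the groups overlapped for Hpgd. Per 1000 FPKM of epithelial markers 3 HSD17B1TG mice lay below every WT mouse and 1 above. These marker ratios were chosen after the values were seen. The part of cell makeup in the ratio of Hpgd to Ptges was not tested. Prostacyclin synthase exceeded Ptges 8.13- to 14.9-fold in HSD17B1TG and 1.55- to 3.60-fold in WT mice 1, 2, 3 and 5, but 15.8-fold in WT mouse 4.

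**Figure D3:**
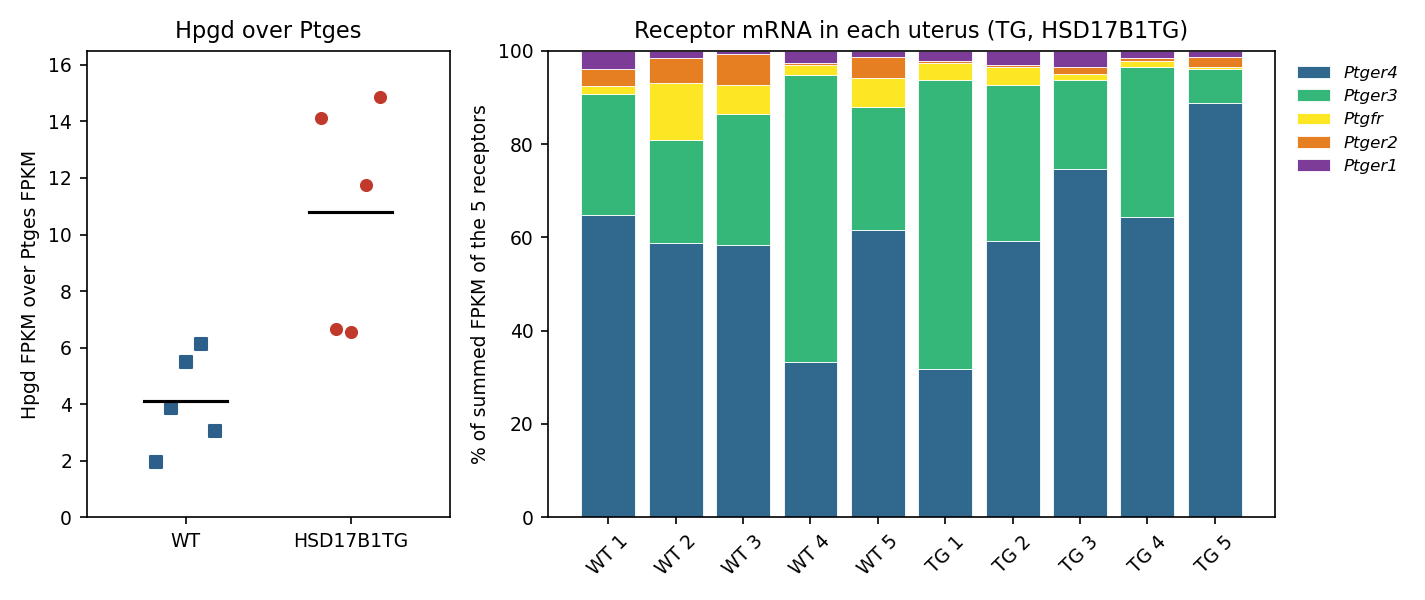
Left, Hpgd FPKM divided by Ptges FPKM in each uterus, with group means as black lines; right, the share of each receptor gene in the summed FPKM of the 5 receptors, 1 bar per uterus. The ratio is 6.56 or higher in HSD17B1TG and 6.13 or lower in WT, and Ptger4 takes the largest share except in WT mouse 4 and HSD17B1TG mouse 1, where Ptger3 does.

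Among the receptors, the EP2 gene Ptger2 was lower in HSD17B1TG than in 4 of the 5 WT mice, without passing the test. EP2 raises cAMP when PGE2 binds. Ptger2 (ENSMUSG00000037759, chr14:44988195-45003820) had FPKM of 0.0723, 0.0996, 0.235, 0.143 and 0.421 in HSD17B1TG mice 1 to 5. In the WT mice it had 0.462, 0.649, 1.81, 0.0653 and 1.04. WT mice 1, 2, 3 and 5 lay above every HSD17B1TG mouse, and WT mouse 4 lay below all of them, with 7 counts. The mean FPKM was 0.194 ± 0.141 (SD, n = 5) in HSD17B1TG and 0.807 ± 0.664 (SD, n = 5) in WT. The log2 fold change was -2.06 (SE 0.75, 95% interval -3.72 to -0.40), or 4.17-fold higher in WT, with an edgeR adjusted p of 0.114, and the exact permutation test gave p = 0.0714. On the same mice DESeq2 gave an adjusted p of 0.0323 and limma-voom a log2 fold change of -1.63 with an adjusted p of 0.297. Without WT mouse 4 the edgeR log2 fold change was -2.36 with an adjusted p of 0.0277, and without WT mouse 3 it was -1.55 with an adjusted p of 0.258. The mean FPKM stayed below 1 in both groups, so that Ptger2 was not called under any of the settings. The genes most like Ptger2 in rank over the mice were Fzd1, Plxna3, Asl, Polr1c and Tmem9, with a Spearman rho of 0.96 to 0.98. For Ptgs1 they were Ppp1r8, Npat, Lrfn3, Gpn3 and Rnf24, with a rho of 0.94 to 0.98.

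The FP gene Ptgfr was likewise low and fitted lower in HSD17B1TG. Ptgfr (ENSMUSG00000028036, chr3:151796502-151837630) had FPKM of 1.06, 0.678, 0.165, 0.220 and 0.0948 in HSD17B1TG mice 1 to 5, and 0.216, 1.51, 1.72, 0.414 and 1.43 in the WT mice. WT mice 2, 3 and 5 lay above every HSD17B1TG mouse, while WT mice 1 and 4 lay among them. The log2 fold change was -1.26 (SE 0.74, 95% interval -2.89 to 0.38), with an edgeR adjusted p of 0.310. It was -2.07 with an adjusted p of 0.0859 when HSD17B1TG mouse 1 and WT mouse 4 were both left out, a choice made after seeing the data.

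The remaining EP receptor genes, Ptger4, Ptger3 and Ptger1, overlapped widely between the groups. Ptger4, the EP4 gene (ENSMUSG00000039942, chr15:5206661-5244187), whose receptor also raises cAMP, had FPKM of 8.83, 10.7, 11, 11.5 and 16.9 in HSD17B1TG mice 1 to 5 and 8.24, 7.28, 16.1, 6.74 and 14.3 in the WT mice. Its log2 fold change was 0.15 (SE 0.28, 95% interval -0.46 to 0.77), with an edgeR adjusted p of 0.771. Its means differed by less than the spread between mice, and it varied only 1.92-fold among HSD17B1TG mice, the least of the members. Ptger3, the EP3 gene (ENSMUSG00000040016, chr3:157566892-157645888), whose receptor lowers cAMP and is known for contraction of the myometrium, had FPKM of 17.2, 6.04, 2.80, 5.69 and 1.40 in HSD17B1TG mice 1 to 5 and 3.30, 2.73, 7.75, 12.4 and 6.18 in the WT mice. The same mice as for Ptgis, HSD17B1TG mouse 1 and WT mouse 4, were highest. Its log2 fold change was 0.03 (SE 0.62, 95% interval -1.34 to 1.39), with an edgeR adjusted p of 0.983, and its sign turned with the scaling and with the mouse left out. Per 1000 FPKM of smooth muscle markers, Ptger3 lay at 1.13 to 1.80 FPKM in HSD17B1TG and 1.59 to 13.4 in WT, where mouse 3 was the highest. Ptger1, the EP1 gene (ENSMUSG00000019464, chr8:83666678-83672753), lay at 0.235 to 0.629 FPKM in HSD17B1TG and 0.202 to 0.550 in WT, with a log2 fold change of 0.29 (SE 0.40) and an edgeR adjusted p of 0.689. The Ptger1 values are given as uncertain, since reads from the opposite strand may have been counted with them.

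**Figure D4:**
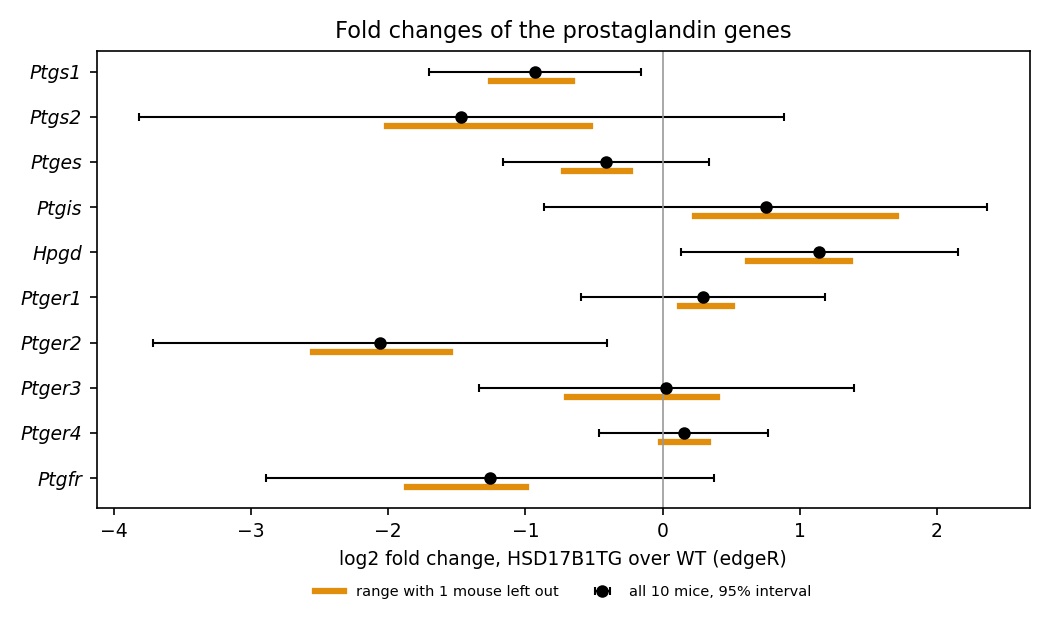
edgeR log2 fold change (x) of each prostaglandin gene, HSD17B1TG over WT, with its 95% interval (black) and the range of the estimate when 1 mouse is left out (orange bar). The intervals of Ptgs1, Hpgd and Ptger2 stay on one side of 0 before adjustment over all genes, and Ptger3 is centred near 0 with an orange bar from -0.70 to 0.40.

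By mean FPKM over the 10 mice the order of the members was Ptgis, Hpgd, Ptger4, Ptger3, Ptgs1, Ptges, Ptgfr, Ptgs2, Ptger2 and Ptger1. Among neighbours in this order, Hpgd exceeded Ptger4 and Ptges exceeded Ptgfr in 10 of 10 mice, and the other neighbours changed places in 2 or more mice and did not differ beyond their spread. The receptors summed to 14.7 to 27.8 FPKM in HSD17B1TG and 12.4 to 27.6 FPKM in WT. Ptger4 took 59.3% to 88.7% of the receptor sum in HSD17B1TG mice 2 to 5 and 58.4% to 64.8% in WT mice 1, 2, 3 and 5. In HSD17B1TG mouse 1 and WT mouse 4, Ptger3 took 61.9% and 61.6% and Ptger4 31.8% and 33.3%.

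Of the other genes of prostanoid metabolism, few passed the test. Among 14 tested phospholipases and partners, which release arachidonic acid or restrain its release, 1 was called up and none down, beside 2.16% and 2.08% of all genes, and the median log2 fold change was 0.09. The called gene was Pla2g2d, a secreted phospholipase A2, with 5.07, 3.23, 2.11, 3.76 and 1.86 FPKM in HSD17B1TG mice 1 to 5 and 0.617, 0.305, 0.111, 1.36 and 0.849 in the WT mice. All HSD17B1TG mice lay above all WT mice, and the log2 fold change was 2.29 (SE 0.57) with an edgeR adjusted p of 0.0427. The abundant Pla2g2e averaged 122 ± 65.2 (SD, n = 5) FPKM in HSD17B1TG and 12.4 ± 18.9 (SD, n = 5) in WT but was not called (edgeR adjusted p = 0.0770), and Anxa1, an inhibitor of phospholipase action, was not called either (adjusted p = 0.203).

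None of 10 genes listed as other prostanoid synthases, 6 other breakdown enzymes and carriers, 4 other prostanoid receptors and partners, or 11 contraction genes was called in either direction by edgeR. Unadjusted p under 0.05 was found for 2, 3, 1 and 2 of them in the same order, beside 26.1% of all genes tested. The most abundant genes of the synthase list were Ptges3, the cytosolic PGE synthase (edgeR adjusted p = 0.430), and Akr1c14 (adjusted p = 0.334). A part of Akr1c14 in prostanoid synthesis was not tested. The 4 receptor and partner genes were all fitted higher in HSD17B1TG, and the median of their log2 fold changes was 1.09. The most abundant were Ptgfrn, a partner of the FP receptor and not itself a receptor (0.79, edgeR adjusted p = 0.223), and the thromboxane receptor Tbxa2r (1.11, adjusted p = 0.285). Tbxa2r ran from 0.301 to 8.58 FPKM in HSD17B1TG and from 1.03 to 2.06 FPKM in WT. The FPKM sum of the list was highest in HSD17B1TG mouse 1 and, among WT, in mouse 4, the mice with the most smooth muscle marker RNA. In the breakdown group, Zadh2 and Ptgr1 were most abundant, with log2 fold changes of -0.60 and -0.32 and adjusted p of 0.0832 and 0.417. The contraction genes Mylk, the myosin light chain kinase, and Oxtr, the oxytocin receptor, had adjusted p of 0.599 and 0.692.

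The lipoxygenase branch, which turns the same arachidonic acid into leukotrienes and hydroxy acids, gave more calls than the prostanoid genes. Of 13 tested genes 3 were called up, beside 2.16% of all genes, and none down, 9 had an unadjusted p under 0.05, beside 26.1% of all genes, and the median log2 fold change was 1.34. Ltc4s, the leukotriene C4 synthase, had 4.87, 5.16, 2.83, 3.73 and 6.34 FPKM in HSD17B1TG mice 1 to 5, and 1.40, 0.934, 1.22, 1.19 and 1.06 in the WT mice. Every HSD17B1TG mouse lay above every WT mouse, with a log2 fold change of 1.97 (SE 0.29) and an edgeR adjusted p of 0.0159. Its exons overlap an antisense gene, Gm26542, over 26.4% of their bases, which had at most 35 counts in a mouse, where Ltc4s had 18 to 35 counts in WT and 54 to 100 in HSD17B1TG. The leukotriene B4 receptor Ltb4r1 lay at 1.56 to 4.66 FPKM in HSD17B1TG and 0.642 to 0.903 FPKM in WT, with a log2 fold change of 1.96 (SE 0.35, adjusted p = 0.0219). Its lower-affinity relative Ltb4r2 lay at 0.535 to 2.53 FPKM against 0.0263 to 0.535 FPKM, with a log2 fold change of 2.86 (SE 0.71, adjusted p = 0.0437). The abundant lipoxygenases Alox15 and Alox12e, near relatives whose reads may be shared, were not called, at 209 ± 112 (SD, n = 5) and 101 ± 59.2 (SD, n = 5) FPKM in HSD17B1TG and 42.7 ± 30.6 and 24.4 ± 22.7 in WT (edgeR adjusted p = 0.0651 and 0.102). The 9 neutrophil markers analysed summed to 9.88 to 17.2 FPKM in HSD17B1TG and 3.27 to 6.11 FPKM in WT, and of the 5 tested 4 were fitted higher and 1, Il1r2, was called down (log2 fold change -2.49). Of 10 markers of all leucocytes 9 were fitted lower and 1 was called up, with sums of 82.6 to 109 FPKM in HSD17B1TG and 66.4 to 140 FPKM in WT. The 10 macrophage markers, 1 of them called up, summed to 251 to 465 FPKM and 225 to 395 FPKM in the same order. The mast cell markers summed to 14.4 to 42.2 FPKM and 27.2 to 61.2 FPKM, with 1 called up and 2 down of 8 tested. The summed FPKM of the lipoxygenase list, to which Alox15 and Alox12e, neither of them called, gave most, followed the order of the summed epithelial markers within HSD17B1TG, from 125 in mouse 1 to 583 in mouse 5. It did not do so in WT, where mouse 4 was highest in epithelial markers at 2028 FPKM with a lipoxygenase sum of 64.3, and mouse 3 was highest in the lipoxygenase sum at 169 with epithelial markers at 698 FPKM. Of the called genes, Ltc4s and Ltb4r1 were lowest in HSD17B1TG mouse 3, whose epithelial sum was second to that of mouse 5. Ltb4r2 followed the epithelial order in HSD17B1TG but for mice 2 and 3. In WT, Ltb4r2 and Ltb4r1 were both highest in mouse 4, the mouse with the most epithelial marker RNA of that group, while Ltc4s was highest in mouse 1. The part of any of these cell types in these values was not tested. The difference between the lipoxygenase and prostaglandin genes was not tested.

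**Figure D5:**
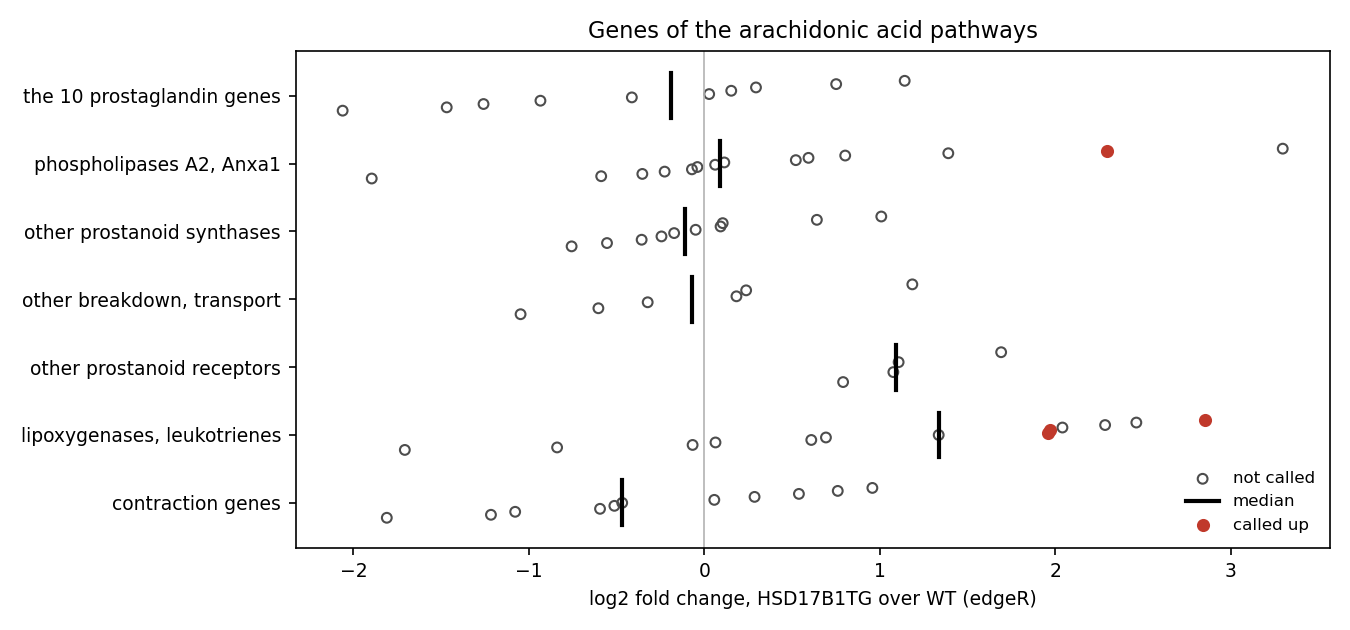
edgeR log2 fold change (x), HSD17B1TG over WT, of each tested gene of 7 lists (1 row per list), open circles for genes not called, red for genes called up and black bars for medians. The prostaglandin genes spread on both sides of 0 around a median of -0.19, and of the 4 genes called up 3 are in the lipoxygenase list and 1 among the phospholipases.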

How the data were processed

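Uteri of 5 HSD17B1TG and 5 WT mice were compared, each mouse being 1 replicate and grouped by its genotype label. Per the study's methods, mRNA was sequenced in paired ends of 150 bases, and the authors mapped reads to an Ensembl 94 mouse genome with HISAT2 (version 2.0.5 in the submitters' processing notes); how reads were counted, and whether by strand, is not given in the sources used here, so reads of genes that overlap on opposite strands cannot be told apart. The deposited table holds raw counts per gene, FPKM computed by the authors, and a signal column of counts that the authors divided by size factors; FPKM was found to be that signal scaled by gene length. Its columns of the authors' own fold changes and p-values were not used, nor were the other deposited tables.

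Counts were tested with edgeR 4.0.16 (quasi-likelihood test, TMM scaling, filterByExpr), with Benjamini-Hochberg adjustment over all 16993 genes kept, which included all 10 members. Intervals of fold changes are 95% intervals from the test's standard error and t distribution. DESeq2, the tool of the study's methods, was run as an alternative (version 1.42.0), beside limma 3.58.1 (voom, and on log2(FPKM + 1)), other scalings, no filter, a filter of at least 10 counts in 8 mice, and each mouse left out. Log2(FPKM + 1) was also compared by exact permutation, two-sided, with all 252 ways of dividing the mice. Named genes are all 10 members and, of each other list, the genes called (at most 4, those with the smallest p) and the 2 most abundant; of the marker and identity lists only Ltf, Msx1, Hoxa11, Hoxa10, Esr1, Il1r2, Acta2 and Cnn1 are named, and Gm26542 for its overlap. Likeness was ranked by Spearman's rho for each member and is printed for the 3 with the smallest edgeR p and, added after the values were seen, for Ptgis. The members, lists and tests were chosen with earlier results of these data known. Promoter windows came from RefSeq, and overlapping genes from the GENCODE annotation of the same build. The 95% intervals and the p-values both take in the spread between mice.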

Additional observations from a re-analysis of the deposited data

How the results depend on the processing

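Of 38 recomputed counts of members called, 37 stayed at 0. With 1 mouse left out, the number called up stayed at 0 and the number called down ran from 0 to 1, the 1 being Ptgs1 without HSD17B1TG mouse 3. Direction was kept by 8 of the 10 members in every edgeR, DESeq2 and limma fit. The exceptions were Ptger3 and Ptger4. Ptger3 had log2 fold changes of -0.20 (limma-voom), -0.10 (total counts only), -0.0049 (no filter), -0.16 (limma on log2(FPKM + 1)) and -0.33 (HSD17B1TG mouse 1 and WT mouse 4 left out together, chosen after seeing the data), and -0.70 to 0.40 with 1 mouse left out. Ptger4 had -0.038 with total counts only and -0.013 to 0.34 with 1 mouse left out. On log2(FPKM + 1) the Ptger3 difference ran from -0.56 to 0.17 with 1 mouse left out. Leaving out both mice gave Ptger2 an edgeR adjusted p of 0.0328, and over the single mice left out that p ran from 0.0277 to 0.258. For Ptgs1 it ran from 0.0446 to 0.271, and for Hpgd from 0.0761 to 0.279. Without WT mouse 4 the exact permutation p was 0.00794 for Ptger2, the smallest that this test can give without that mouse, and 0.0317 for Ptgs1. Without HSD17B1TG mouse 3 it was 0.0238 for Ptgs1 and 0.0317 for Hpgd. Ptger2 and Ptgs2 were not kept by the filter of at least 10 counts in 8 mice. No paired analysis was possible because the labels give no replicate numbers, and the last number of the sample titles, whose meaning is not stated, is shared across the groups by only 1 pair, HSD17B1TG mouse 1 and WT mouse 4, the highest mice of their groups in smooth muscle markers, Ptgis and Ptger3. The lowest counts of Ptgs2 and Ptger2 in a mouse were 4 and 7, and both varied widely among WT mice (42.2- and 27.8-fold).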
